A study of Mus musculus with 8 samples.

Results

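Mouse skin wound cells sorted on day 26 after wounding were compared with cells sorted on day 15, gene by gene. The comparison used 4 of the 8 libraries of the study, 2 from each of these days, and covered the 15062 of 43346 genes in the authors' table that reached at least 1 TPM in at least 2 of the 8 libraries. TPM is the number of transcripts of a gene after scaling each library to the same total. All animals were Sm22-Cre;tdTomato mice of mixed background, without another treatment in the labels. In these mice the Sm22 promoter, which is active in smooth muscle and other contractile cells, drives the Cre recombinase that switches on the red protein tdTomato for good. Wound tissue was digested with collagenase, viable cells of high tdTomato signal were sorted, and SMART-seq2 libraries, which copy whole transcripts from small amounts of RNA, were made from them on days 12, 15, 21 and 26. The labels call the cells wound myofibroblasts. The mark is permanent, so a sorted cell may have used the promoter earlier and not at the time of the sort. Whether both libraries of a day stem from different animals is not in the labels, so the p-values cover the spread between libraries alone. On days 15 and 21 the libraries of a day differed in the sex-linked gene Xist. Its level was 30.7 and 5.54 TPM on day 15 and 4.78 and 27.5 TPM on day 21. On these days the spread is thus not technical alone, while on days 12 and 26 it may be. The value columns carry numbers of their own, and the libraries are called day 15 library 1, day 15 library 3, day 26 library 1 and day 26 library 2 after them. Values are given in that order, and where values are set against each other those of day 15 come first.

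Myofibroblasts are the contractile, matrix-producing fibroblasts of a healing wound. They lay down collagen, tenascins and other matrix proteins while the wound closes, and in scars they are later lost or change their state. In large mouse wounds some of these cells are known to turn into fat cells in the late phase, near newly formed hair follicles, and signals of the BMP and Wnt families act in that tissue. The comparison of days 15 and 26 asks how the sorted cells changed between the earlier time and this late phase.

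The labelled cell type was checked against its markers. Collagen I and III, the main fibrillar collagens of skin, were among the most abundant transcripts, with Col1a1 at 15531 and 17545 TPM on day 15 and 36951 and 31819.95 TPM on day 26. Acta2, the smooth muscle actin that defines myofibroblasts, stood at 989.7 and 539 TPM on day 15 and 381 and 644 TPM on day 26. Tagln, the gene of SM22, stood at 200.1 and 128 TPM on day 15 and 65.0 and 141 TPM on day 26. Pdgfra and Pdgfrb, the receptors for platelet-derived growth factor on fibroblasts and mural cells, were present in all 4 libraries, at 32.2 to 61.8 and 141 to 219 TPM. Markers of other cells were present too. The summed level of 24 keratinocyte markers was 59.5 and 126 TPM on day 15 and 471 and 1032 TPM on day 26, and that of 22 macrophage and leukocyte markers was 2072 and 2932 TPM on day 15 and 931 and 1702 TPM on day 26. Of the keratinocyte markers 18 reached the level for a test and none was at 0 in all 4 libraries. In bulk RNA, fewer cells of a type and less RNA per cell cannot be told apart. Sex-linked genes differed as well: Xist, the noncoding RNA that silences an X chromosome in female cells, stood at 30.7 and 5.54 TPM on day 15 and 0 and 0.01 TPM on day 26, and the Y-linked gene Ddx3y at 0 and 24.0 TPM on day 15 and 34.0 and 30.0 TPM on day 26. Day 15 library 1 thus held Xist with Ddx3y at 0, day 15 library 3 held both, and the day 26 libraries held Ddx3y with next to no Xist. The effects of sex and of day cannot be told apart.

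On day 26 the cells had lower levels of 23 of 24 mitosis genes, 17 of 25 type I interferon genes, 10 of 15 imprinted genes and the tenascins Tnc and Tnn than on day 15. Higher on day 26 were 5 of 11 small leucine-rich proteoglycans, elastin, the protease Mmp3, the Wnt antagonists Dkk2 and Wif1, and 10 of 23 detoxification enzymes. A gene counted as changed, or called, at an adjusted p under 0.05 in the limma test over all 8 libraries. Log2 changes are differences of the mean log2(TPM + 1), day 26 minus day 15, over 2 libraries a day, with the SE of the fit. On day 26, 275 genes were higher (1.83% of those tested) and 667 were lower (4.43%), together 6.25%. Of these, 84 rose and 90 fell by 4-fold or more. Protein-coding genes made up 261 of the rises and 614 of the falls. At an unadjusted p under 0.05, 779 genes were higher and 2672 lower. As a further setting, the Xist level of each library, in TPM and not as a log2 value, served as a covariate. It was near 0 in all libraries of days 12 and 26, so its effect was estimated from the differences within days 15 and 21. Xist itself still passed in this fit (log2 change -2.11, adjusted p = 0.0392). The covariate and the fitted levels were on unlike scales, so this result does not bear on sex and day. The fit does not separate sex from day. With this covariate, 61 genes passed as higher and 113 as lower. The latter held 9 mitosis, 11 type I interferon and 5 imprinted genes, and the former 1 of the 11 proteoglycans and 3 of the 23 detoxification enzymes. Elastin did not pass with this covariate (adjusted p = 0.114), while Mmp3, Dkk2, Wif1, Tnc and Tnn did. The other named genes whose calls were lost with it were Adam12, Aldh1a1, Bmp4, C1ra, C1rl, C1s1, Ccl3, Ccl8, Cd34, Cd48, Cdkn1a, Col12a1, Col1a1, Col24a1, Col27a1, Col9a2, Cpa3, Ctsk, Ctss, Ear2, Ecm2, F13a1, Fabp5, Fabp7, Fgf10, Foxp1, Gadd45a, Gata3, Gbp3, Gbp6, Hsp90ab1, Id2, Ifi27l2a, Ifi47, Igfbp2, Il1rl1, Inhba, Insig1, Itga2b, Klf15, Laptm5, Lgr5, Loxl2, Loxl3, Ltbp1, Ly6d, Lyz1, Mcm2, Meg3, Mgl2, Ms4a7, Msmo1, Osr1, Pcolce2, Pdgfrl, Pdlim7, Pi16, Plod2, Podn, Postn, Prelp, Retnla, Rpl10a, Rpl37, Rpl8, Rps4x, Rrm1, Runx2, Scara5, Slpi, Stmn1, Stmn2, Tagln2, Tnxb, Tpi1, Tpm2, Uchl1, Uhrf1 and Wnt5b. The libraries of the days did not overlap for 50.8% of all tested genes, 11.4% with day 26 higher and 39.4% with day 26 lower. The 2 libraries of day 15 correlated across genes at r = 0.974, those of day 26 at 0.969, and pairs from the different days at 0.947 to 0.957.

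**Figure D1:**
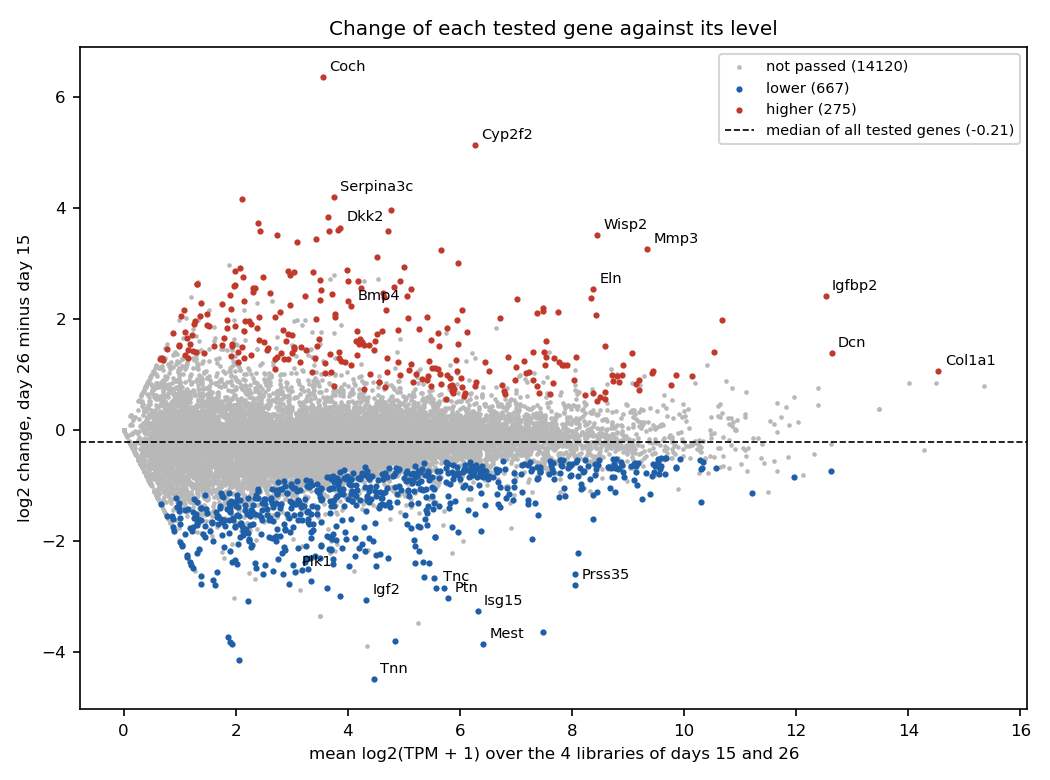
Each point is 1 of the tested genes, with its mean log2(TPM + 1) over the 4 libraries of days 15 and 26 on the x axis and its log2 change, day 26 minus day 15, on the y axis. Red points passed the test as higher (275) and blue points as lower (667), and the dashed line marks the median of all tested genes at -0.21.

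A few very abundant transcripts, mostly of matrix genes, held a larger part of all TPM on day 26 than on day 15. TPM have a fixed total, so the remaining genes together held less. The 5 genes with the largest gain in TPM, chosen after their values were seen, were Sparc, Col1a1, Col3a1, Igfbp2 and Col1a2. Chosen by that gain, they were bound to hold a larger share on day 26. Together they held 7.66% and 8.46% of all TPM on day 15 and 16.3% and 15.0% on day 26. Sparc, a collagen-binding matricellular protein, was measured at 30035 and 33591 TPM on day 15 and 56219.8 and 53856 TPM on day 26, short of the threshold (log2 change 0.79, adjusted p = 0.0528). Col3a1 and Col1a2 did not pass either (both adjusted p = 0.0617). The median log2 change of all tested genes was -0.21 with the values as deposited. It was -0.096 with TPM rescaled without the 50 most abundant genes and 0.03 when each library was centred on its median gene. Rises made up 29.2% of the calls as deposited, 45.5% with TPM rescaled without the 50 most abundant genes, 56.1% with quantile normalization and 62.4% with median centring. No gene was called in the opposite direction under any of these scalings. The excess of falls over rises depended on the scaling, and list medians are read below against -0.21. Under at least 1 of these scalings the calls of the following named genes were lost: Ccl3, Cd48, Cd68, Col12a1, Col1a1, Col27a1, Col9a2, Cpa3, Ctss, Fabp5, Foxp1, Gadd45a, Gbp6, Hsp90ab1, Ifi47, Insig1, Irgm1, Laptm5, Loxl2, Loxl3, Meg3, Mgl2, Ms4a7, Pdlim7, Postn, Rpl10a, Rpl37, Rpl8, Rps4x, Tpi1, Xist and Zyx.

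Among genes at or above the median level, the 12 largest rises included secreted proteins, enzymes and receptors. Coch (ENSMUSG00000020953.12, chr12:51593341-51605771 on the plus strand, positions in mm10 from GENCODE M21), which encodes the secreted protein cochlin, best known from the inner ear, was measured at 0.33 and 0.28 TPM on day 15 and 50.7 and 219 TPM on day 26 (log2 change 6.35, SE 0.60, adjusted p = 0.00154). It was near 0 in both day 15 libraries, and the day 26 libraries differed from each other by more than 4-fold. Cyp2f2 (ENSMUSG00000052974.7, chr7:27119909-27133660 on the plus strand), a cytochrome P450 best known from airway club cells, was measured at 7.58 and 18.9 TPM on day 15 and 498 and 417 TPM on day 26 (log2 change 5.13, SE 0.35, adjusted p = 0.00071). The serine protease inhibitor gene Serpina3c was measured at 1.91 and 2.44 TPM on day 15 and 47.9 and 66.9 TPM on day 26 (log2 change 4.19, SE 0.40, adjusted p = 0.00154). No overlap was a condition of the choice, and for these 3 genes the margins between the days were wide. Wisp2, a matricellular protein of the CCN family, was measured at 76.3 and 138 TPM on day 15 and 1305 and 1056 TPM on day 26 (log2 change 3.50, SE 0.28, adjusted p = 0.000748). Mmp3, the matrix protease stromelysin 1, was measured at 227 and 191 TPM on day 15 and 1837 and 2193 TPM on day 26 (log2 change 3.26, SE 0.25, adjusted p = 0.000727). Gal, the neuropeptide galanin, was measured at 7.71 and 14.5 TPM on day 15 and 81.7 and 95.6 TPM on day 26 (log2 change 2.94, SE 0.27, adjusted p = 0.00139). These 3 genes had no overlap between days either, which their choice required.

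Scara5, a scavenger receptor that binds ferritin, was measured at 3.57 and 11.7 TPM on day 15 and 72.8 and 112 TPM on day 26 (log2 change 3.59, SE 0.68, adjusted p = 0.0197). Stmn2, a protein that destabilizes microtubules and is best known from neurons, was measured at 11.5 and 2.26 TPM on day 15 and 27.0 and 58.2 TPM on day 26 (log2 change 2.68, SE 0.58, adjusted p = 0.0317). Slpi, a secreted inhibitor of leukocyte proteases that epithelia also make, was measured at 2.58 and 3.6 TPM on day 15 and 77.7 and 30.2 TPM on day 26 (log2 change 3.61, SE 0.51, adjusted p = 0.00715). Ly6d, a surface protein found on keratinocytes and lymphoid cells, was measured at 5.25 and 7.26 TPM on day 15 and 23.3 and 85.9 TPM on day 26 (log2 change 2.68, SE 0.50, adjusted p = 0.0187). Keratinocyte markers rose between the same libraries, and their part in the change of Slpi and Ly6d was not tested. With 1 library left out, a call was lost (adjusted p in parentheses) for Scara5 without day 15 library 1 (0.101) or day 26 library 2 (0.0715), Stmn2 without day 15 library 3 (0.0847) or day 26 library 2 (0.12) and Ly6d without day 15 library 1 (0.093) or day 15 library 3 (0.0577).

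The 12 largest falls, chosen in the same way, included 2 tenascins, 4 imprinted genes and 4 interferon-response genes. Tnn (ENSMUSG00000026725.13, chr1:160085029-160153580 on the minus strand), which encodes tenascin N, was measured at 83.5 and 128 TPM on day 15 and 4.10 and 3.29 TPM on day 26 (log2 change -4.48, SE 0.29, adjusted p = 0.000556). Tnc (ENSMUSG00000028364.11, chr4:63959785-64047015 on the minus strand), the wound matrix protein tenascin C, was measured at 126 and 128 TPM on day 15 and 17.7 and 16.2 TPM on day 26 (log2 change -2.84, SE 0.14, adjusted p = 0.000142). The libraries of each day nearly coincided for Tnc, which had the smallest adjusted p of all genes. Prss35, a secreted protein related to serine proteases, was measured at 641 and 768 TPM on day 15 and 101 and 101 TPM on day 26 (log2 change -2.79, SE 0.24, adjusted p = 0.00117). Ptn, the heparin-binding growth factor pleiotrophin, was measured at 126 and 195 TPM on day 15 and 13.5 and 25.0 TPM on day 26 (log2 change -3.02, SE 0.28, adjusted p = 0.00154). Ifi27l2a, an interferon-induced gene, was measured at 463 and 845 TPM on day 15 and 19 and 127 TPM on day 26 (log2 change -3.63, SE 0.75, adjusted p = 0.0266). The day 26 libraries of Ifi27l2a lay far apart but both under day 15. Of the calls in this paragraph 1 was lost with a library left out, that of Ifi27l2a without day 15 library 1 (0.0704) or day 15 library 3 (0.105). Mest, H19, Igf2, Dlk1, Isg15, Oas1a and Irf7, the other genes among the 12 largest falls, are described with their groups.

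**Figure D2:**
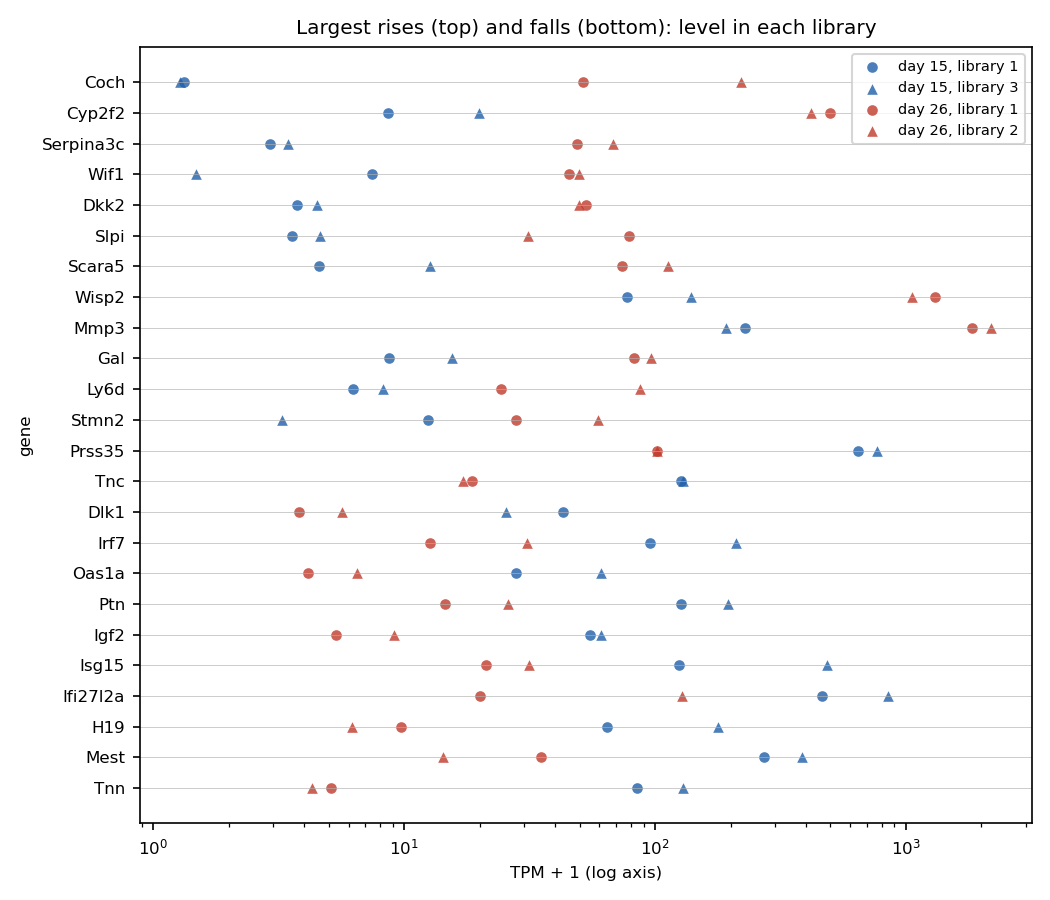
TPM + 1 on a log axis (x) for the 12 largest rises and 12 largest falls (y), chosen as in the text without markers of other cell types. Each library has 1 marker, with circles and triangles for the libraries of a day, blue for day 15 and red for day 26. Genes were chosen only if red and blue markers did not overlap, and Tnc shows the tightest pairs (126 and 128 against 17.7 and 16.2 TPM).

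Among matrix genes, small leucine-rich proteoglycans, which bind collagen fibrils and set their spacing, rose in 5 of 11 tested cases and fell in none, with a median log2 change of 0.85 against -0.21 for all tested genes. Dcn, the abundant proteoglycan decorin, was measured at 3589 and 4308 TPM on day 15 and 9454 and 11248 TPM on day 26 (log2 change 1.39, SE 0.17, adjusted p = 0.00441). Prelp was measured at 72.5 and 144 TPM on day 15 and 540.1 and 374 TPM on day 26 (log2 change 2.13, SE 0.33, adjusted p = 0.01). Podn, podocan, was at 20.3 and 29.6 against 94.4 and 63.9 TPM (log2 change 1.63, adjusted p = 0.00835), and Ecm2 at 24.1 and 33.2 against 96.2 and 71.4 TPM (log2 change 1.52, adjusted p = 0.0101). Day 26 was higher without overlap for all 4, as for 11.4% of all tested genes, and Dcn was the most abundant. These 4 calls held with each library left out, and with Xist as a covariate that of Dcn held (adjusted p = 0.0447).

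The fibrillar collagens moved in both directions. Of 9 tested members, 1 rose and 2 fell (median -0.36). Col1a1, the main chain of collagen I, was the member that rose (log2 change 1.06, SE 0.23, adjusted p = 0.0313), and it lost the call under quantile normalization and median centring. Col24a1, a minor fibrillar collagen, fell with 11.6 and 10.9 against 2.69 and 1.76 TPM (log2 change -1.94, SE 0.27, adjusted p = 0.00679), and Col27a1 with 26.05 and 22.1 against 9.33 and 11.2 TPM (log2 change -1.15, SE 0.26, adjusted p = 0.0369). The minor chains thus fell from low levels while the far more abundant collagen I was higher. Of 13 fibril-associated and other collagens 1 rose and 2 fell (median -0.38). Col12a1, which sits on collagen I fibrils, fell with 662 and 619 against 312 and 282 TPM (log2 change -1.11, SE 0.16, adjusted p = 0.00727). Col9a2, a chain of collagen IX, fell with 3.43 and 3.71 against 0.14 and 0.95 TPM (log2 change -1.62, adjusted p = 0.032). Col15a1, a basement membrane zone collagen, rose with 11.7 and 7.68 against 32.2 and 29.5 TPM (log2 change 1.598, SE 0.23, adjusted p = 0.00745). With a library left out, the call was lost (adjusted p in parentheses) for Col9a2 without day 15 library 1 (0.117), day 15 library 3 (0.106) or day 26 library 1 (0.124). Col1a1 and Col27a1 did not pass with any 1 of the 4 libraries left out (adjusted p 0.0518 to 0.164).

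Matricellular proteins, which act on cells from within the matrix, split: 2 of 17 tested members rose and 3 fell, with a median of -0.08 whose sign changed with every other scaling. Beside Tnc and Tnn, the third member that fell was periostin, Postn, at 3262 and 3779 TPM on day 15 and 1909 and 1328 TPM on day 26 (log2 change -1.14, SE 0.23, adjusted p = 0.0266). The call of Postn was lost under each of the 3 other scalings (adjusted p 0.0605 to 0.154). Tnxb, tenascin X, moved against the other tenascins, with 7.54 and 12.16 TPM on day 15 and 62.9 and 52.2 TPM on day 26 (log2 change 2.46, SE 0.34, adjusted p = 0.0065). Among elastic fibre genes 2 of 14 rose and none fell (median 0.37). Eln, the elastin gene, was measured at 88.5 and 212 TPM on day 15 and 855 and 757 TPM on day 26 (log2 change 2.54, SE 0.45, adjusted p = 0.0161). Day 15 library 3 was higher than library 1, and both were far below day 26. Efemp1, fibulin 3, was measured at 54.5 and 47.9 TPM on day 15 and 188 and 233 TPM on day 26 (log2 change 2.01, SE 0.16, adjusted p = 0.000727). The removal of 1 library ended the call of Postn without day 15 library 1 (0.0757), day 15 library 3 (0.0991) or day 26 library 2 (0.0933) and Eln without day 15 library 1 (0.0668) or day 26 library 1 (0.0551).

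Enzymes that process collagen also split, 1 of 16 higher and 3 lower, with a median of -0.01 whose sign changed with the scaling. The lysyl oxidases Loxl2 and Loxl3, which cross-link collagen, fell, with 312 and 349 against 178 and 115 TPM (log2 change -1.20, adjusted p = 0.0234) and 43.4 and 41.1 against 24.4 and 25.4 TPM (log2 change -0.74, adjusted p = 0.0421). Plod2, the lysyl hydroxylase of collagen telopeptides, fell with 17.8 and 12.4 against 3.89 and 4.43 TPM (log2 change -1.62, SE 0.25, adjusted p = 0.00948). Pcolce2, an enhancer of procollagen C-proteinase, rose with 0.76 and 1.66 against 10.6 and 17.4 TPM (log2 change 2.76, SE 0.39, adjusted p = 0.00742). Of 20 matrix proteases and inhibitors 4 rose and 1 fell (median 0.16). The count of 4 was 2 without day 15 library 1 or day 26 library 1. Mmp8, the collagenase first known from neutrophils, rose with Mmp3, at 1.18 and 2.20 TPM on day 15 and 22.6 and 31.4 TPM on day 26 (log2 change 3.39, SE 0.29, adjusted p = 0.00108). Ctsk, cathepsin K, which degrades collagen, rose from 729.6 and 894 to 1853 and 1371 TPM (log2 change 0.98, adjusted p = 0.0204). Adam12, a membrane metalloprotease of activated mesenchyme, fell with 134 and 143 against 67.0 and 43.6 TPM (log2 change -1.34, SE 0.20, adjusted p = 0.00817). None of the named enzymes overlapped between the days, which also held for 50.8% of all tested genes. On leaving out 1 library the call was lost (adjusted p in parentheses) for Loxl2 without day 15 library 1 (0.0749), day 15 library 3 (0.09) or day 26 library 2 (0.0765) and Ctsk without day 15 library 1 (0.104) or day 26 library 1 (0.0709). Loxl3 did not pass with any 1 of the 4 libraries left out (adjusted p 0.0989 to 0.159).

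The calls among contractile genes were all falls, and 4.43% of all tested genes were called lower. Of 17 smooth muscle contractile genes none rose and 2 fell, with 9 at an unadjusted p under 0.05 and a median of -0.58. The calls were Actg2, the enteric smooth muscle actin, at 85.4 and 78.9 TPM on day 15 and 36.5 and 34.9 TPM on day 26 (log2 change -1.18, SE 0.17, adjusted p = 0.00769), and Tpm2, beta-tropomyosin, at 381 and 329.7 TPM on day 15 and 124 and 196 TPM on day 26 (log2 change -1.18, SE 0.20, adjusted p = 0.0152). Acta2 (log2 change -0.56, SE 0.34, adjusted p = 0.36) and Tagln (log2 change -0.74, SE 0.35, adjusted p = 0.254) did not pass: day 26 library 2 lay within the range of day 15 for both. The summed level of the list was 4557 and 2981 TPM on day 15 and 1902 and 3112 TPM on day 26, so the days overlapped. Of 20 actomyosin and focal adhesion genes none rose and 8 fell (median -0.69). Tes, testin, a focal adhesion protein, was measured at 18.1 and 28.2 TPM on day 15 and 4.39 and 3.44 TPM on day 26 (log2 change -2.27, SE 0.24, adjusted p = 0.00238). Tagln2, transgelin 2, fell with 400.3 and 335 against 189 and 226 TPM (log2 change -0.82, adjusted p = 0.0184), the adhesion protein Zyx, zyxin, with 78.3 and 112 against 51.3 and 40.5 TPM (log2 change -1.02, adjusted p = 0.0251) and Pdlim7, which binds actin filaments, with 138 and 128 against 69.6 and 93.4 TPM (log2 change -0.71, adjusted p = 0.0352). With a library removed, calls were lost (adjusted p in parentheses) for Tpm2 without day 15 library 1 (0.075), Tagln2 without day 15 library 1 (0.0922) or day 26 library 1 (0.0722) and Zyx without day 15 library 3 (0.0944) or day 26 library 2 (0.0934). This also applied to Pdlim7 without day 15 library 1 (0.149), day 15 library 3 (0.0843) or day 26 library 1 (0.131). The count of 8 was 2 to 4 when 1 library was left out, from 2 without day 15 library 1 to 4 without day 15 library 3 or day 26 library 1, and 3 without day 26 library 2. It was 2 with median centring, 4 with quantile normalization and 2 with the rescaling, and Zyx and Pdlim7 were among the losses under all 3 scalings.

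Mitosis genes had the largest share of calls among the 46 lists. Of 24 tested members 23 fell and none rose, with a median of -1.95 against -0.21 for all tested genes. Plk1 (ENSMUSG00000030867.6, chr7:122159439-122169873 on the plus strand), the kinase that drives mitotic entry and spindle assembly, was measured at 20.7 and 17.9 TPM on day 15 and 1.91 and 3.09 TPM on day 26 (log2 change -2.55, SE 0.23, adjusted p = 0.00138). Ccna2, cyclin A2, was measured at 41.1 and 33.2 TPM on day 15 and 5.32 and 6.74 TPM on day 26 (log2 change -2.44, SE 0.20, adjusted p = 0.000748). Birc5, survivin, a part of the chromosomal passenger complex, was measured at 53.2 and 51.6 TPM on day 15 and 7.64 and 9.98 TPM on day 26 (log2 change -2.45, SE 0.18, adjusted p = 0.000727). Ube2c, the ubiquitin-conjugating enzyme that works with the anaphase-promoting complex, was measured at 58.2 and 57.2 TPM on day 15 and 8.31 and 14.3 TPM on day 26 (log2 change -2.30, SE 0.23, adjusted p = 0.00187). All 4 genes fell to a small part of their day 15 level, and their calls held with each library left out. They had no overlap between the days, as had 39.4% of all tested genes with day 26 lower. The count of 23 became 13 without day 15 library 1, 19 without day 15 library 3, 17 without day 26 library 1 and 21 without day 26 library 2. The level of day 21 lay between those of days 15 and 26: Plk1 stood at 27.3 and 25.7 TPM on day 12 and 7.43 and 6.40 TPM on day 21.

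Genes of DNA replication fell in 11 of 22 tested cases and rose in none (median -1.02). Uhrf1, which maintains DNA methylation at replication, was measured at 14.1 and 11.6 TPM on day 15 and 2.81 and 3.13 TPM on day 26 (log2 change -1.80, SE 0.25, adjusted p = 0.00682). Chaf1b, a subunit of the histone chaperone CAF-1, was at 11.9 and 10.8 against 2.77 and 2.43 TPM (log2 change -1.78, adjusted p = 0.00746), Mcm2, a subunit of the replicative helicase, at 22.3 and 19.1 against 6.13 and 7.31 TPM (log2 change -1.49, adjusted p = 0.00746) and Rrm1, the large subunit of ribonucleotide reductase, at 31.2 and 27.9 against 11.1 and 13.9 TPM (log2 change -1.18, adjusted p = 0.014). The day 26 values lay below day 15 in each case, as for 39.4% of all tested genes. With a library left out 1 of these calls was lost, that of Rrm1 without day 15 library 1 (0.068) or day 26 library 1 (0.056). The count of 11 was 3 without day 15 library 1, 6 without day 15 library 3, 4 without day 26 library 1 and 9 without day 26 library 2.

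Of 14 inhibitors of the cell cycle 3 rose and 1 fell, with a median of -0.17 whose sign changed with median centring. Cdkn2a, the locus of p16 and p19Arf, was measured at 10.1 and 13.2 TPM on day 15 and 42.4 and 38.7 TPM on day 26 (log2 change 1.72, SE 0.21, adjusted p = 0.00445). Its neighbour Cdkn2b, p15, was measured at 29.2 and 26.07 TPM on day 15 and 74.2 and 59.7 TPM on day 26 (log2 change 1.24, SE 0.19, adjusted p = 0.0099). Cdkn1a, p21, was measured at 78.6 and 105 TPM on day 15 and 259.6 and 183 TPM on day 26 (log2 change 1.25, SE 0.20, adjusted p = 0.0113). Gadd45a, a stress-induced inhibitor of division, fell with 22.6 and 17.96 against 9.33 and 7.13 TPM (log2 change -1.21, SE 0.23, adjusted p = 0.022). The day 26 libraries lay above both day 15 libraries for the 3 inhibitors of cyclin-dependent kinases, as for 11.4% of all tested genes. A call was lost on removing a library for Cdkn1a without day 15 library 1 (0.0557) and Gadd45a without day 15 library 1 (0.109) or day 26 library 2 (0.0833).

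Promoters of the mitosis genes were searched for elements known from cell cycle genes. RefSeq promoters of mouse build GRCm38.p6, from 250 bases before to 50 after the annotated start, were matched by symbol for 19 of the called mitosis genes, 20 promoters in all. The CHR element, searched as TTTGAA or TTCGAA on both strands, is known from cell cycle promoters bound by the DREAM and MuvB complexes. It was in 16 of the 20 promoters (80.0%), against 19.2% of all 32851 promoters of the table and 13.9% of those of tested genes. The CCAAT box, searched as CCAAT on both strands, was in 18 of the 20 (90.0%), against 37.4% of all promoters. A match describes these letters and is not evidence of binding. The promoters of Plk1 (chr7:122159185-122159484, plus strand) and Ube2c (chr2:164769679-164769978, plus strand) are shown, with the CHR letters in capitals. They are the 2 called mitosis genes of lowest adjusted p whose promoter held a CHR match.
Plk1: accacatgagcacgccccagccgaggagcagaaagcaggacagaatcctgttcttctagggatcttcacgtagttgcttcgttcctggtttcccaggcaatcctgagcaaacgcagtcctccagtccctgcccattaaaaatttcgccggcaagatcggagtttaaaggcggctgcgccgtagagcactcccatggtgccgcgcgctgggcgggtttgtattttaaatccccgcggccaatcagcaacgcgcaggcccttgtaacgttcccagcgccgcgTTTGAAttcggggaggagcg
Ube2c: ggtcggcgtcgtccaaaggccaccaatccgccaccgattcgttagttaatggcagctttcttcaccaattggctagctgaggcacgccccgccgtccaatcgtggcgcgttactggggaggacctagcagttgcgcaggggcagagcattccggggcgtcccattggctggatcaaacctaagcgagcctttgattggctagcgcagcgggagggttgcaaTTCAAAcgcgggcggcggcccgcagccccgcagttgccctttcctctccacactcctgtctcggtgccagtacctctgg

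Imprinted genes, of which only the copy from 1 parent is active and many of which belong to a network of fetal growth genes, fell in 10 of 15 tested cases and rose in none (median -1.23). Mest was measured at 271 and 385 TPM on day 15 and 34.1 and 13.3 TPM on day 26 (log2 change -3.85, SE 0.36, adjusted p = 0.00153). H19, a long noncoding RNA, was measured at 63.1 and 178 TPM on day 15 and 8.75 and 5.17 TPM on day 26 (log2 change -3.79, SE 0.44, adjusted p = 0.00398). Its neighbour Igf2, the fetal growth factor, was measured at 54.2 and 60.1 TPM on day 15 and 4.34 and 8.07 TPM on day 26 (log2 change -3.06, SE 0.32, adjusted p = 0.00217). For all 3 genes both day 26 libraries lay far below both day 15 libraries, while 39.4% of all tested genes were lower without overlap. Nnat, neuronatin, was measured at 12.22 and 16.8 TPM on day 15 and 1.15 and 2.28 TPM on day 26 (log2 change -2.53, SE 0.31, adjusted p = 0.00441). Dlk1, also called Pref-1, an inhibitor of fat cell formation, was measured at 42.1 and 24.5 TPM on day 15 and 2.79 and 4.65 TPM on day 26 (log2 change -2.84, SE 0.35, adjusted p = 0.00449). These calls held with each library left out, while the count of 10 was 6 without day 15 library 1, 6 without day 15 library 3, 8 without day 26 library 1 and 6 without day 26 library 2. Meg3, the noncoding RNA of the Dlk1 domain, named after its values were seen, was highest on day 21, unlike Mest, Igf2 and H19. It stood at 1196 and 621 TPM on day 12 and 1542 and 1482 TPM on day 21, and at 1162 and 755 TPM on day 15 and 401 and 395 TPM on day 26 (log2 change -1.23, adjusted p = 0.0442). Meg3 did not pass with any 1 of the 4 libraries left out (adjusted p 0.0531 to 0.219). In the IGF axis 1 of 14 genes rose and 1 fell (median -0.24). The rise was Igfbp2, a secreted protein that binds IGF1 and IGF2, at 1906 and 3423 TPM on day 15 and 12927 and 14299 TPM on day 26 (log2 change 2.41, SE 0.32, adjusted p = 0.00552), and the fall was Igf2.

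The interferon response was lower on day 26. Of 25 genes of the type I interferon response 17 fell and none rose (median -1.79), and 24 had an unadjusted p under 0.05. Isg15, a ubiquitin-like modifier, was measured at 124 and 483 TPM on day 15 and 20.2 and 30.6 TPM on day 26 (log2 change -3.25, SE 0.52, adjusted p = 0.0114). Day 15 library 3 held nearly 4 times the level of library 1, and both stood far above day 26. Irf7, the transcription factor that amplifies interferon production, was measured at 94.4 and 209.9 TPM on day 15 and 11.6 and 29.8 TPM on day 26 (log2 change -2.85, SE 0.43, adjusted p = 0.00948). Oas1a, an enzyme that senses double-stranded RNA, was measured at 26.9 and 59.7 TPM on day 15 and 3.12 and 5.50 TPM on day 26 (log2 change -2.99, SE 0.36, adjusted p = 0.00423). Oasl2 was at 65.3 and 159 against 13.3 and 18.01 TPM (log2 change -2.65, adjusted p = 0.00715) and Rtp4 at 61.2 and 107 against 13.4 and 22.0 TPM (log2 change -2.17, adjusted p = 0.00715). Mx2, of a family of antiviral GTPases and annotated as a polymorphic pseudogene, was at 9.00 and 17.98 against 1.52 and 1.10 TPM (log2 change -2.58, adjusted p = 0.00687). For each of these genes day 15 library 3 was the highest of the 4 libraries, and it also had the higher summed level of macrophage and leukocyte markers. The part of those cells in the result was not tested. The count of 17 was 9 without day 15 library 3 and 8 without day 26 library 1, against 22 without day 15 library 1 and 12 without day 26 library 2. It was 8 with median centring and 10 with quantile normalization. Without day 15 library 3, all 6 named genes still passed.

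The interferon-inducible GTPases, which defend cells against pathogens in vacuoles, fell in 7 of 13 cases with no rise (median -0.87). Gbp3 was measured at 46.7 and 73.5 TPM on day 15 and 12.9 and 23.4 TPM on day 26 (log2 change -1.70, SE 0.31, adjusted p = 0.0172). Irgm1 was at 47.5 and 96.8 against 24.1 and 25.0 TPM (log2 change -1.43, adjusted p = 0.022), Ifi47 at 66.7 and 91.3 against 40.7 and 38.3 TPM (log2 change -0.97, adjusted p = 0.0297) and Gbp6 at 12.9 and 23.6 against 6.61 and 4.53 TPM (log2 change -1.51, adjusted p = 0.032). Members of this family are close in sequence, so the division of reads between them is uncertain. With a library taken out, the call was lost (adjusted p in parentheses) for Gbp3 without day 15 library 3 (0.0778) or day 26 library 1 (0.0566), Irgm1 without day 26 library 1 (0.0687) or day 26 library 2 (0.0603) and Ifi47 without day 15 library 3 (0.112), day 26 library 1 (0.0772) or day 26 library 2 (0.0941). The same was true of Gbp6 without day 15 library 3 (0.117), day 26 library 1 (0.0527) or day 26 library 2 (0.115). The count of 7 fell to 0 without day 26 library 1, 1 without day 15 library 3, 2 without day 26 library 2 and 5 without day 15 library 1. It was 1 with median centring.

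The interferon-stimulated response element was looked for in the same way. Its core, searched as GAAA, any 2 bases and GAAA again on both strands, was in 7 of 15 promoters (46.7%) of the called genes of the type I interferon response and in 4 of 6 (66.7%) of the called GTPases. Over all members of these lists with a promoter in the table it was in 11 of 19 (57.9%) and 9 of 11 (81.8%), against 3.44% of all 32851 promoters. The promoters of Oas1a (chr5:120907476-120907775, minus strand), Isg15 (chr4:156200769-156201068, minus strand) and Bst2 (chr8:71537423-71537722, minus strand), the gene of the antiviral membrane protein tetherin, are shown. They are the called type I interferon genes of lowest adjusted p whose promoter held the core, and each had more than 1 match. Capitals mark the core, and the matches overlap.
Oas1a: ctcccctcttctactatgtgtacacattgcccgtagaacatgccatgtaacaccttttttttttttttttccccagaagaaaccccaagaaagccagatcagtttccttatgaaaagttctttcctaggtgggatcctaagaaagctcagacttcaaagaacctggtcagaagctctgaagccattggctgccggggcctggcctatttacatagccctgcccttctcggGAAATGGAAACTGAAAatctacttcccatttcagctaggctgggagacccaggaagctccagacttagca
Isg15: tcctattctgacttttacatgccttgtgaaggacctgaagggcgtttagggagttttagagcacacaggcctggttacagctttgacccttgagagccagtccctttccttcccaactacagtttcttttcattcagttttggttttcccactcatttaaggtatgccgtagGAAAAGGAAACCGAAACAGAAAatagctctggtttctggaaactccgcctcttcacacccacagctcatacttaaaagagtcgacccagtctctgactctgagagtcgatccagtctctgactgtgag
Bst2: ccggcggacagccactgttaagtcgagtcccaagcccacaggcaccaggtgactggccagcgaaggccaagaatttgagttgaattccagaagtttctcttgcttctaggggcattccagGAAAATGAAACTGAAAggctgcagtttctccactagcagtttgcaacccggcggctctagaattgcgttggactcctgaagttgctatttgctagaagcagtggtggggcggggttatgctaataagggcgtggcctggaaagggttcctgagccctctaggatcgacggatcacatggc
The CArG box, the site of serum response factor in contractile genes, was in 2 of 15 promoters (13.3%) of the smooth muscle contractile list, against 1.63% of all promoters, and in 0 of the 1 promoter of a called member.

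The calls among Wnt pathway genes were all rises. Of 11 secreted Wnt antagonists 2 rose and none fell (median 0.11). Dkk2, which blocks the LRP co-receptors, was measured at 2.75 and 3.51 TPM on day 15 and 52.2 and 48.8 TPM on day 26 (log2 change 3.65, SE 0.26, adjusted p = 0.000727). Wif1, which binds Wnt proteins, was measured at 6.46 and 0.48 TPM on day 15 and 44.5 and 48.7 TPM on day 26 (log2 change 3.84, SE 0.61, adjusted p = 0.0106). Both antagonists were low in both day 15 libraries and near 50 TPM on day 26. Of 28 Wnt ligands, receptors and targets 4 rose and none fell (median 0.05). Rspo1, a secreted protein that strengthens Wnt signalling, was measured at 2.89 and 1.27 TPM on day 15 and 15.32 and 24.8 TPM on day 26 (log2 change 2.79, SE 0.33, adjusted p = 0.00423). Sp5, a transcription factor gene induced by Wnt, was measured at 0.45 and 0.63 TPM on day 15 and 10.5 and 10.9 TPM on day 26 (log2 change 2.93, SE 0.39, adjusted p = 0.00612). Lgr5, a receptor for R-spondins, was at 29.4 and 42.6 against 146 and 76.1 TPM (log2 change 1.55, adjusted p = 0.0311), and the ligand Wnt5b at 7.74 and 8.39 against 18.5 and 17.0 TPM (log2 change 1.05, adjusted p = 0.0262). Antagonists and Wnt-side genes were thus higher in the same libraries. Calls that did not survive the removal of a library were those of Lgr5 without day 15 library 1 (0.156), day 15 library 3 (0.0585) or day 26 library 1 (0.111). Wnt5b did not pass with any 1 of the 4 libraries left out (adjusted p 0.0714 to 0.105).

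In the BMP pathway 2 of 27 genes rose and none fell, with a median of -0.07 whose sign changed with every other scaling. Bmp4, the BMP ligand, was measured at 5.04 and 8.88 TPM on day 15 and 27.3 and 45.5 TPM on day 26 (log2 change 2.23, SE 0.34, adjusted p = 0.00948). Id2, a direct target of BMP signalling, was measured at 43.4 and 42.8 TPM on day 15 and 74.5 and 77.7 TPM on day 26 (log2 change 0.81, SE 0.13, adjusted p = 0.013). Of 20 genes of the TGF-beta pathway 2 rose and none fell (median 0.05). Ltbp1, which holds latent TGF-beta in the matrix, was at 32.6 and 27.7 against 63.4 and 56.3 TPM (log2 change 0.97, adjusted p = 0.0127), and Inhba, the activin A subunit, at 37.5 and 42.3 against 89.5 and 66.1 TPM (log2 change 0.93, adjusted p = 0.0195). None of the 11 Hedgehog pathway genes passed (median 0.06), and 0 had an unadjusted p under 0.05. Its lowest p belonged to Hhip, a Hedgehog-binding protein, at 3.13 and 1.03 against 3.38 and 7.48 TPM (log2 change 1.07, adjusted p = 0.257), and to the inhibitor Sufu at 19.9 and 16.3 against 15.0 and 10.4 TPM (log2 change -0.50, adjusted p = 0.265). In the FGF and PDGF pathways 3 of 23 genes rose and none fell (median 0.16). Fgf7, a growth factor for epithelia, was measured at 2.40 and 2.02 TPM on day 15 and 11.5 and 12.8 TPM on day 26 (log2 change 2.04, SE 0.29, adjusted p = 0.00749). Fgf10 was at 1.72 and 0.88 against 3.90 and 7.51 TPM (log2 change 1.51, adjusted p = 0.0418) and Pdgfrl, a gene related to the PDGF receptors, at 387 and 480.1 against 937 and 689 TPM (log2 change 0.90, adjusted p = 0.0259). With 1 of the 4 libraries removed, the call was lost (adjusted p in parentheses) for Id2 without day 15 library 3 (0.0502), Ltbp1 without day 15 library 3 (0.0576) or day 26 library 1 (0.0551) and Inhba without day 15 library 1 (0.0926), day 15 library 3 (0.0524) or day 26 library 1 (0.076). Further losses concerned Fgf10 without day 15 library 1 (0.0815), day 15 library 3 (0.14) or day 26 library 2 (0.165) and Pdgfrl without day 15 library 1 (0.128) or day 26 library 1 (0.0936).

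**Figure D3:**
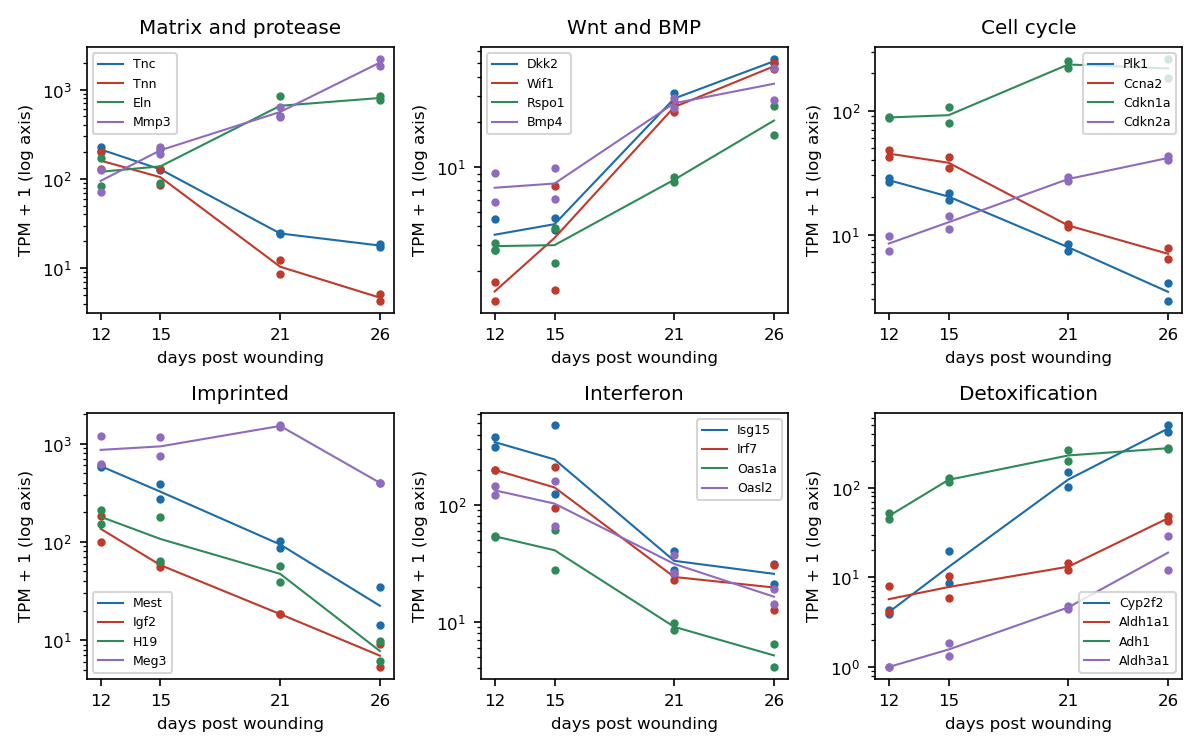
TPM + 1 on a log axis (y) against days post wounding (x) for 24 genes in 6 panels, with 1 point per library and a line through the geometric mean of each day. By these means Plk1, Igf2 and Irf7 are lower on day 21 than on day 15 and lowest on day 26, while Mmp3, Dkk2 and Cyp2f2 are higher on day 21 and highest on day 26.

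Genes of fat cells were mostly without a call, as were tested genes in general, of which 6.25% were called. Of 24 preadipocyte and adipogenic factors 2 rose and 1 fell (median 0.18). Pparg, the master regulator of fat cell formation, was measured at 6.10 and 2.86 TPM on day 15 and 6.84 and 8.33 TPM on day 26, without a call (log2 change 0.71, SE 0.37, adjusted p = 0.294). Zfp423, a factor that commits cells to the preadipocyte state, was measured at 5.94 and 6.43 TPM on day 15 and 15.5 and 9.88 TPM on day 26, again without a call (log2 change 0.90, SE 0.27, adjusted p = 0.0897). Both day 26 libraries were above both day 15 libraries for these 2 genes, as for 11.4% of all tested genes. Klf15 was at 1.62 and 1.16 against 4.83 and 5.19 TPM (log2 change 1.34, adjusted p = 0.0268), and Gata3, which restrains fat cell formation, at 0.31 and 0.39 against 2.71 and 2.64 TPM (log2 change 1.45, adjusted p = 0.0226). The fall was Dlk1. Of 19 tested adipocyte lipid genes none rose and 1 fell, with a median of -0.14 whose sign changed with quantile normalization and median centring. Fabp4, the fatty acid binding protein of fat cells, was measured at 68.4 and 33.1 TPM on day 15 and 29.1 and 97.5 TPM on day 26, with overlap between the days (log2 change 0.16, SE 0.50, adjusted p = 0.875). The sign of its change turned on a library: the log2 change was -0.35 without day 15 library 3 and -0.69 without day 26 library 2. Fabp5, the epidermal form, fell with 196 and 282 against 68.5 and 126 TPM (log2 change -1.33, adjusted p = 0.0279). Adipoq, adiponectin, was under the level for a test, at 0.33 and 0 TPM on day 15 and 0.57 and 3.77 TPM on day 26, and all 4 libraries listed Lep, Cidec and Ucp1 at 0. The call was lost on removal of a library for Fabp5 without day 15 library 3 (0.11) or day 26 library 1 (0.0809). Klf15 and Gata3 did not pass with any 1 of the 4 libraries left out (adjusted p 0.0725 to 0.104).

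Among metabolic genes most calls were those of detoxification enzymes. Of 23 tested detoxification enzymes 10 rose and none fell (median 0.61). Beside Cyp2f2, Aldh3a1, an aldehyde dehydrogenase, was measured at 0.86 and 0.32 TPM on day 15 and 11.2 and 28.3 TPM on day 26 (log2 change 3.59, SE 0.41, adjusted p = 0.00372). Aldh1a1, a retinaldehyde dehydrogenase, was measured at 4.82 and 9.45 TPM on day 15 and 47.6 and 41.9 TPM on day 26 (log2 change 2.55, SE 0.36, adjusted p = 0.00715). Adh1, an alcohol dehydrogenase, was measured at 128 and 116 TPM on day 15 and 277 and 273 TPM on day 26 (log2 change 1.17, SE 0.17, adjusted p = 0.00724). These enzymes were higher on day 26 without overlap, as were 11.4% of all tested genes, and their calls held with each library left out. The count of 10 was 6 without day 15 library 1, 6 without day 15 library 3, 7 without day 26 library 1 and 5 without day 26 library 2. Of 18 genes of cholesterol synthesis and uptake 2 rose and none fell (median 0.51), namely Insig1, a sterol sensor, at 23.0 and 27.7 against 66.9 and 40.4 TPM (log2 change 1.01, adjusted p = 0.0476), and Msmo1, a sterol-4-alpha-methyl oxidase, at 17.96 and 15.09 against 29.4 and 31.9 TPM (log2 change 0.86, adjusted p = 0.0279). Of 22 glycolysis and hypoxia genes 1 fell, with a median of -0.04 whose sign changed with the scaling. It was Tpi1, triosephosphate isomerase, at 279 and 261 against 182 and 187 TPM (log2 change -0.54, adjusted p = 0.0333). The removal of a library ended the call of Insig1 without day 15 library 1 (0.205), day 15 library 3 (0.0902) or day 26 library 1 (0.176). Msmo1 and Tpi1 did not pass with any 1 of the 4 libraries left out (adjusted p 0.0601 to 0.138). The call of Tpi1 was also lost under each of the 3 other scalings.

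Cytosolic ribosomal protein genes fell in 15 of 30 tested cases and rose in none (median -0.52). Rpl10a was measured at 574 and 575 TPM on day 15 and 322 and 321 TPM on day 26 (log2 change -0.84, SE 0.12, adjusted p = 0.00698). Rpl8 was at 840.4 and 987 against 547 and 486 TPM (log2 change -0.82, adjusted p = 0.0152), Rps4x at 972 and 1157 against 629 and 596 TPM (log2 change -0.79, adjusted p = 0.013) and Rpl37 at 214 and 228 against 134 and 129 TPM (log2 change -0.75, adjusted p = 0.0124). These calls depended on the scaling: with median centring none of the 30 passed and the median was -0.28, while the median of all tested genes was 0.03. The count was 8 without day 15 library 1, 1 without day 15 library 3, 6 without day 26 library 1 and 4 without day 26 library 2. Among the named members the call was lost for Rpl8 without day 15 library 3 (0.0639) or day 26 library 2 (0.0536), Rps4x without day 15 library 3 (0.0577) and Rpl37 without day 15 library 3 (0.0542). Of 15 heat shock genes 2 fell and none rose (median -0.37), the cytosolic HSP90 genes Hsp90aa1 at 395 and 430.5 against 207 and 189 TPM (log2 change -1.05, adjusted p = 0.00682) and Hsp90ab1 at 977 and 840.01 against 571 and 610.4 TPM (log2 change -0.62, adjusted p = 0.0279). Without a library the call was lost for Hsp90ab1 without day 15 library 1 (0.134), day 26 library 1 (0.0961) or day 26 library 2 (0.0606). None of 20 genes of ER chaperones and the unfolded protein response passed (median -0.26), with 7 at an unadjusted p under 0.05. The lowest p were those of Pdia4 at 260.1 and 252 against 184 and 157 TPM (log2 change -0.59, adjusted p = 0.072) and Herpud1 at 98.4 and 96.3 against 129 and 149.9 TPM (log2 change 0.51, adjusted p = 0.0792).

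Immediate early genes, which respond to dissociation as well as to growth factors, did not pass in any of 17 cases (median -0.62), with 3 at an unadjusted p under 0.05. The 2 libraries of day 26 stood at the extremes: the summed level of the list was 6998 and 9446 TPM on day 15 and 12449.8 and 3004 TPM on day 26. Atf3 was at 94.0 and 93.3 against 60.8 and 12.4 TPM (log2 change -1.72, adjusted p = 0.127) and Nr4a2 at 12.5 and 26.9 against 9.34 and 8.03 TPM (log2 change -1.01, adjusted p = 0.189). Without day 26 library 1, 6 of the 17 genes passed as lower.

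Complement genes rose in 4 of 17 cases and fell in none (median 0.64). Serping1, the inhibitor of the C1 protease complex, was measured at 911 and 911 TPM on day 15 and 2471 and 2349 TPM on day 26 (log2 change 1.40, SE 0.12, adjusted p = 0.00118). C1ra, the protease C1r, was at 226 and 252 against 401 and 346 TPM (log2 change 0.64, adjusted p = 0.0275), C1s1 at 311 and 273 against 431 and 411 TPM (log2 change 0.53, adjusted p = 0.0477) and C1rl at 7.37 and 6.53 against 15.5 and 19.4 TPM (log2 change 1.21, adjusted p = 0.021). Of the 4 called members the inhibitor had the largest rise. Of 26 chemokines and cytokines 7 rose and 1 fell (median 0.11). Cxcl12, the ligand of CXCR4, was measured at 125 and 97.7 TPM on day 15 and 279 and 313 TPM on day 26 (log2 change 1.41, SE 0.17, adjusted p = 0.00456). Cxcl14 was measured at 18.9 and 21.6 TPM on day 15 and 91.7 and 79.9 TPM on day 26 (log2 change 2.03, SE 0.17, adjusted p = 0.00107). Ccl8 was at 269 and 406 against 791 and 947 TPM (log2 change 1.39, adjusted p = 0.0164), and Il1rl1, the receptor for IL-33, fell with 18.02 and 15.5 against 6.17 and 5.43 TPM (log2 change -1.38, adjusted p = 0.00781). Leaving out a library ended the call (adjusted p in parentheses) of C1ra without day 15 library 1 (0.127), day 15 library 3 (0.0599) or day 26 library 1 (0.11), C1rl without day 15 library 1 (0.0644), day 15 library 3 (0.0808) or day 26 library 2 (0.0895) and Ccl8 without day 15 library 1 (0.0785) or day 26 library 2 (0.0599). C1s1 did not pass with any 1 of the 4 libraries left out (adjusted p 0.0839 to 0.147). The count of 4 complement genes was 1 without either library of day 15 and 2 without day 26 library 2. That of 7 chemokines and cytokines was 4 without day 15 library 3 or day 26 library 1 and 2 without day 26 library 2.

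Markers of fibroblast progenitors rose in 3 of 21 cases and fell in 1 (median 0.08). Ly6c1, a surface protein of progenitors and endothelium, was measured at 108 and 188 TPM on day 15 and 731 and 749.9 TPM on day 26 (log2 change 2.37, SE 0.28, adjusted p = 0.00394). Cd34 was measured at 94.8 and 116 TPM on day 15 and 319 and 323 TPM on day 26 (log2 change 1.604, SE 0.28, adjusted p = 0.0161). Pi16, a marker of adventitial fibroblasts, was measured at 20.1 and 44.3 TPM on day 15 and 164 and 116 TPM on day 26 (log2 change 2.17, SE 0.42, adjusted p = 0.022). Dlk1 was again the fall. Cd34 and Ly6c1 are also endothelial genes, and the part of endothelial cells in their rises was not tested. The 15 tested endothelial markers gave no call, with 1 at an unadjusted p under 0.05. Their summed level was 304 and 182 TPM on day 15 and 152 and 365 TPM on day 26. Of 18 genes of the dermal papilla, the hair follicle mesenchyme, 4 rose and none fell (median 0.29), all of them named above: Wif1, Bmp4, Fgf7 and Fgf10. Of 26 dermal transcription factors 2 rose and 3 fell, with a median of -0.10 whose sign changed with quantile normalization and median centring. Osr1 rose with 38.7 and 45.4 against 93.7 and 84.6 TPM (log2 change 1.07, adjusted p = 0.0125). Runx1 fell with 32.3 and 41.1 against 15.33 and 14.7 TPM (log2 change -1.22, SE 0.19, adjusted p = 0.00973), Runx2, the osteoblast factor, with 30.7 and 39.3 against 13.4 and 6.84 TPM (log2 change -1.75, adjusted p = 0.0127) and Foxp1 with 45.5 and 45.6 against 27.3 and 25.6 TPM (log2 change -0.76, adjusted p = 0.0195). None of 22 Hox genes, which record position along the body, passed, with 2 at an unadjusted p under 0.05 and a median of -0.18 whose sign changed with the scaling. The lowest p were those of Hoxb2 at 15.25 and 15.4 against 5.31 and 9.64 TPM (log2 change -0.996, adjusted p = 0.0604) and Hoxa10 at 25.2 and 19.3 against 31.2 and 32.4 TPM (log2 change 0.51, adjusted p = 0.139). Removing a library ended the call (adjusted p in parentheses) of Cd34 without day 15 library 1 (0.0827), Pi16 without day 15 library 1 (0.0993) or day 26 library 1 (0.0832) and Osr1 without day 15 library 1 (0.0618). Calls were likewise lost for Runx2 without day 15 library 3 (0.0624). Foxp1 did not pass with any 1 of the 4 libraries left out (adjusted p 0.0527 to 0.0748).

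**Figure D4:**
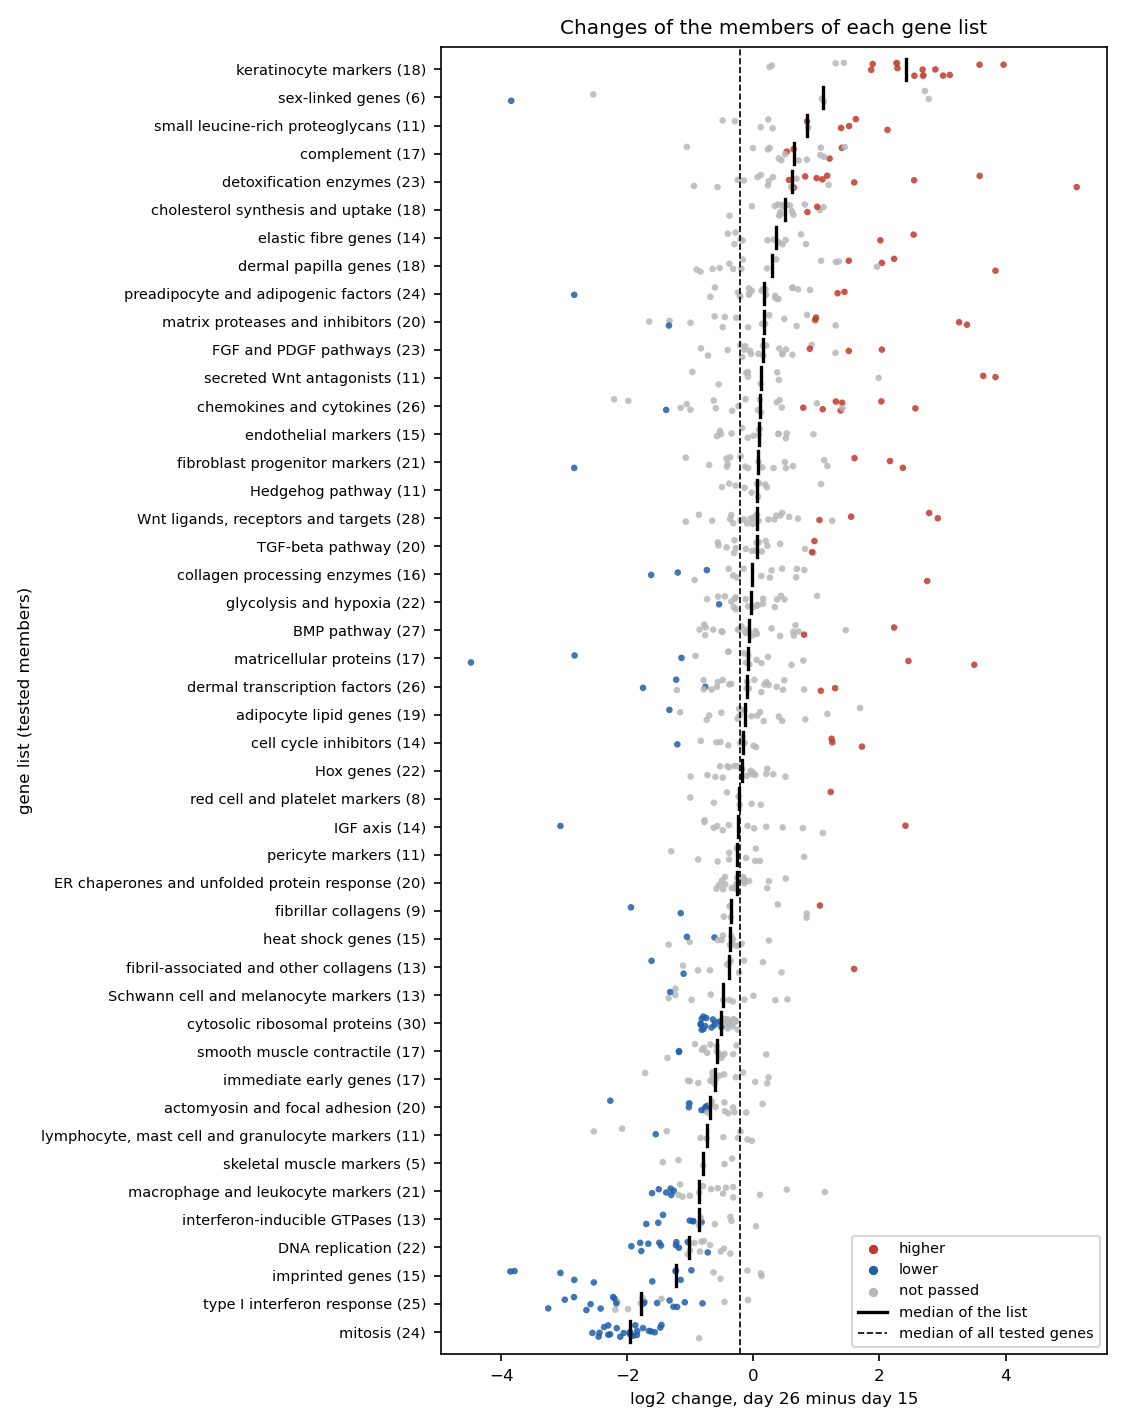
Log2 change, day 26 minus day 15 (x), of each tested member of 46 gene lists (y, with the number tested), red for members that passed as higher, blue for lower and grey for the rest. Black bars are list medians, from 2.42 for keratinocyte markers to -1.95 for mitosis genes, and the dashed line is the median of all tested genes at -0.21.

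Markers of other cells changed between the same libraries. Of 18 tested keratinocyte markers 12 rose and none fell (median 2.42). Krt15, a keratin of basal and follicle keratinocytes, was measured at 2.78 and 2.59 TPM on day 15 and 53.1 and 35.2 TPM on day 26 (log2 change 3.59, SE 0.26, adjusted p = 0.000727). Krt5, the basal keratin, was measured at 4.12 and 10.9 TPM on day 15 and 68.5 and 64.5 TPM on day 26 (log2 change 3.12, SE 0.40, adjusted p = 0.00485). Krt17, of follicles and wounded epidermis, was measured at 4.24 and 8.08 TPM on day 15 and 63.9 and 178 TPM on day 26 (log2 change 3.97, SE 0.45, adjusted p = 0.00372), and Sfn, 14-3-3 sigma, at 2.48 and 4.70 against 22.1 and 35.0 TPM (log2 change 2.70, adjusted p = 0.00451). For these 4 genes both day 26 libraries lay far above day 15, while 11.4% of all tested genes were higher without overlap. The part of keratinocytes in the other rises was not tested. The keratins of differentiated epidermis Krt1 and Krt10 had overlapping values, at 1.95 and 8.89 against 2.38 and 12.0 TPM and 8.07 and 11.6 against 8.19 and 16.8 TPM. The count of 12 was 7 without day 15 library 1, 8 without day 15 library 3, 12 without day 26 library 1 and 7 without day 26 library 2.

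Of 21 tested macrophage and leukocyte markers 6 fell and none rose (median -0.86). Cd68, a lysosomal protein of macrophages, was measured at 54.5 and 91.3 TPM on day 15 and 19.7 and 29.9 TPM on day 26 (log2 change -1.50, SE 0.30, adjusted p = 0.0259). Laptm5 was at 45.7 and 76.2 against 21.1 and 25.5 TPM (log2 change -1.31, adjusted p = 0.0244), Ms4a7 at 58.2 and 89.1 against 15.5 and 33.8 TPM (log2 change -1.61, adjusted p = 0.0394) and Ctss, cathepsin S, at 128 and 223 against 49.5 and 83.3 TPM (log2 change -1.38, adjusted p = 0.0289). Csf1r, the receptor on which macrophages depend, was at 42.3 and 51.5 against 66.9 and 68.8 TPM (log2 change 0.53, adjusted p = 0.185), and Ptprc, the leukocyte surface protein CD45, was low throughout at 3.02 and 5.88 against 2.39 and 2.73 TPM. The calls were lost on removal of a library (adjusted p in parentheses) for Cd68 without day 15 library 3 (0.0992) or day 26 library 1 (0.0991), Laptm5 without day 15 library 3 (0.0887) or day 26 library 1 (0.0903) and Ms4a7 without day 15 library 1 (0.0727), day 15 library 3 (0.14) or day 26 library 1 (0.132). The list also held Ctss without day 15 library 3 (0.104) or day 26 library 1 (0.108). The count of 6 was 0 without day 15 library 3 or day 26 library 1, 5 without day 15 library 1 and 11 without day 26 library 2, and 0 with quantile normalization or median centring.

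The remaining marker lists gave at most 1 call each, and 6.25% of all tested genes were called. None of 11 pericyte markers passed, with 1 at an unadjusted p under 0.05 (median -0.26). Their summed level was 2702 and 1019 TPM on day 15 and 988 and 2179.7 TPM on day 26, high in day 15 library 1 and day 26 library 2, the same libraries in which Acta2 and Tagln were highest. Mcam stood at 285 and 121 against 58.8 and 94.7 TPM (log2 change -1.30, adjusted p = 0.109) and Ndufa4l2 at 291 and 138 against 273 and 454 TPM (log2 change 0.81, adjusted p = 0.227), and the part of pericytes in the contractile genes was not tested. Of 13 Schwann cell and melanocyte markers 1 fell (median -0.48), Ncam1, an adhesion molecule, at 74.3 and 71.4 TPM on day 15 and 29.5 and 27.7 TPM on day 26 (log2 change -1.32, SE 0.14, adjusted p = 0.00217). The list's summed level was 1731 and 876 TPM on day 15 and 964 and 1358 TPM on day 26. Of 11 lymphocyte, mast cell and granulocyte markers 1 fell (median -0.74), the mast cell protease Cpa3 at 7.83 and 4.74 against 0.94 and 2.05 TPM (log2 change -1.55, adjusted p = 0.0458), and Ly6g was listed at 0 in all 4 libraries. Of 8 red cell and platelet markers 1 rose, with a median of -0.23 whose sign changed with quantile normalization and median centring, the integrin chain Itga2b at 8.79 and 9.44 against 21.0 and 24.4 TPM (log2 change 1.23, adjusted p = 0.0226). None of 15 endothelial markers passed (median 0.09), with Plvap at 33.0 and 20.4 against 30.4 and 85.6 TPM (log2 change 0.95, adjusted p = 0.216) and Kdr at 1.94 and 1.35 against 1.05 and 0.65 TPM (log2 change -0.52, adjusted p = 0.351). None of 5 tested skeletal muscle markers passed (median -0.79), with 2 at an unadjusted p under 0.05, Tnni2 at 2.81 and 1.40 against 0.76 and 0 TPM (log2 change -1.19, adjusted p = 0.106) and Acta1 at 5.41 and 0.42 against 0.15 and 0.08 TPM (log2 change -1.44, adjusted p = 0.215), and Myod1 and Pax7 were listed at 0. Of 6 tested sex-linked genes 1 fell (median 1.10), Xist (log2 change -3.84, SE 0.81, adjusted p = 0.0288). A call was lost with a library removed (adjusted p in parentheses) for Xist without day 15 library 1 (0.137), day 26 library 1 (0.0834) or day 26 library 2 (0.0812). Cpa3 and Itga2b did not pass with any 1 of the 4 libraries left out (adjusted p 0.0528 to 0.223).

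**Figure D5:**
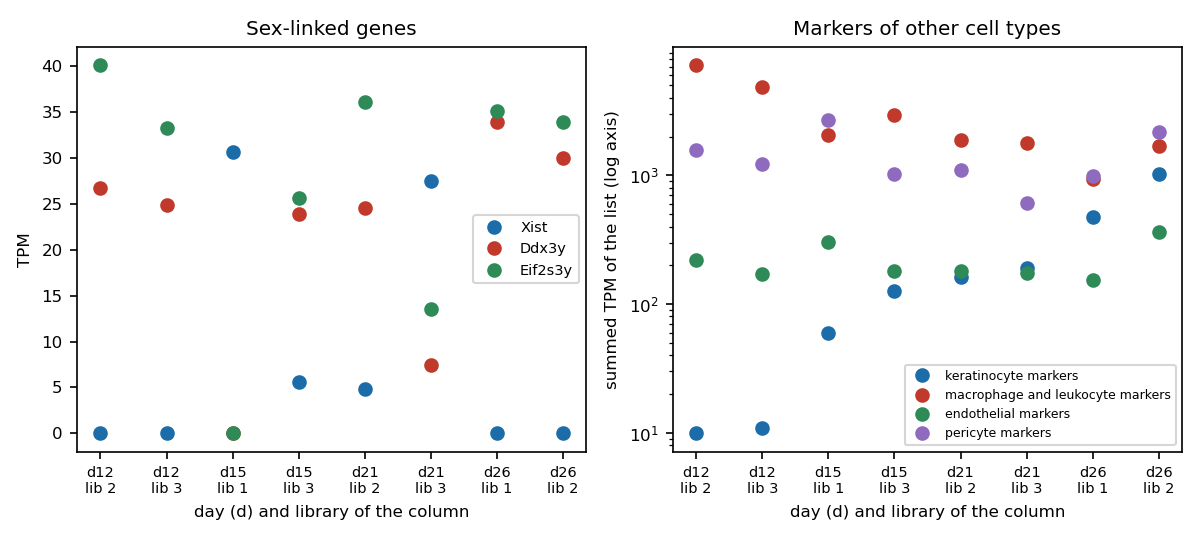
Left, TPM of Xist and of the Y-linked genes Ddx3y and Eif2s3y (y) in each of the 8 libraries (x). Right, summed TPM on a log axis (y) of the keratinocyte, macrophage and leukocyte, endothelial and pericyte marker lists in the same libraries, where keratinocyte markers stand at 59.5 and 126 TPM on day 15 and 471 and 1032 TPM on day 26.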

How the data were processed

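RNA-seq of 8 libraries was held as 1 table of signal values per gene deposited by the authors. The smallest value was 1 and, less 1 per gene, each library had the same total, which is how TPM plus 1 behaves, and 1 was subtracted. RSEM 1.12.2 and build mm10 appear in the submitters' processing notes. No source used here names the aligner or the annotation. TPM keep no depth, which is unknown. SMART-seq2 keeps no strand, so overlapping genes cannot be told apart, and 128 entries share a symbol and were followed by identifier. Column names give a day and a number unlike the labels' replicate numbers, so columns were assigned to days only. In 5 tables of clusters, 40 further value columns were not used.

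The 15062 genes that reached 1 TPM in 2 or more libraries were tested on log2(TPM + 1), which understates the change of low genes, with limma 3.58.1 in R 4.3.3 (trend, day as a factor over 8 libraries, residual degrees of freedom 4, prior 4.76, Benjamini-Hochberg adjustment over all tested genes). The procedure was tested on simulated data. The members, the 46 gene lists and the tests were chosen with earlier results of these data known, so list counts and medians are descriptions. The genes named are the 12 largest rises and 12 largest falls that passed without overlap at or above the median level, leaving out marker genes, small RNAs, pseudogenes and gene models, up to 4 passing members per list by adjusted p (2 where none passed), and Tagln, Acta2, Pparg, Zfp423, Fabp4, Adipoq, Bmp4 and Xist. Other names (Sparc, Col3a1, Col1a2, Postn, Meg3, Bst2, Csf1r, Ptprc, Krt1, Krt10, Pdgfra, Pdgfrb, Ddx3y, Lep, Cidec, Ucp1, Myod1, Pax7, Ly6g and those of the other observations) were chosen after their values were seen. Alternatives changed the pseudocount, the filter, the scaling, the fit, a covariate or the libraries kept. Of 863 listed symbols 862 were found, and all 144 named genes had GENCODE M21 positions.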

Additional observations from a re-analysis of the deposited data

How the results depend on the processing

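The counts of 275 higher and 667 lower genes were 242 and 688 with a pseudocount of 0.1 TPM, 256 and 678 with a filter of 5 TPM, 133 and 204 without a filter, 399 and 312 with quantile normalization, 414 and 249 with median centring, 335 and 402 with rescaling without the 50 most abundant genes, 195 and 378 in limma without the trend, 61 and 113 with Xist as a covariate, and 8 and 7 from the 4 libraries of these days alone. With 1 library left out they ranged from 145 to 193 higher and from 268 to 414 lower: 145 and 268 without day 15 library 1, 158 and 285 without day 15 library 3, 193 and 357 without day 26 library 1, and 171 and 414 without day 26 library 2. A day left with 1 library is then assumed to vary like the other days. No gene was called in opposite directions by any of these settings. Of the 124 named genes that passed, 85 to 98 still passed with 1 library left out, 99 with median centring, 104 with quantile normalization, 56 with Xist as a covariate and 8 with only the 4 libraries. Those 8 (Cyp2f2, Dkk2, Krt15, Mmp3, Prss35, Serpina3c, Tnc and Tnn) passed under every alternative run. The fit of the 4 libraries alone has 2 residual degrees of freedom. The log2 change of Fabp4 (0.16) ranged from -0.69 without day 26 library 2 and -0.35 without day 15 library 3 to 1.02 without day 26 library 1, that of Sparc (0.79) to 0 and that of Col3a1 (0.84) to -0.057 with quantile normalization, and none of the 3 had passed. The cause of the other changes was not tested. No paired analysis was possible because the value columns of days 15 and 26 share only 1 number. Depth is unknown, so counting error could not be separated from the spread between libraries.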

Other observations

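The genes of this section were chosen after their values were seen. Genes that macrophages are known to express were found among both the rises and the falls, and the ones given here were picked from either side. Retnla, a secreted product of alternatively activated macrophages, was measured at 0.19 and 2.28 TPM on day 15 and 11.6 and 38.8 TPM on day 26 (log2 change 3.50, SE 0.77, adjusted p = 0.0327). The lectin Mgl2 was measured at 3.12 and 8.83 TPM on day 15 and 14.6 and 24.5 TPM on day 26 (log2 change 1.65, SE 0.40, adjusted p = 0.0478). F13a1, the A chain of coagulation factor XIII, was measured at 58.3 and 23.1 TPM on day 15 and 135 and 119.5 TPM on day 26 (log2 change 1.76, SE 0.37, adjusted p = 0.0275). Ear2 and Lyz1 were also higher, at 3.74 and 8.36 against 16.7 and 44.7 TPM (adjusted p = 0.0458) and 2.74 and 3.50 against 14.5 and 29.7 TPM (adjusted p = 0.0249). In the same libraries Trem2, a lipid-sensing receptor of macrophages, fell, at 26.0 and 34.6 TPM on day 15 and 4.22 and 8.76 TPM on day 26 (log2 change -2.12, SE 0.32, adjusted p = 0.00846). C3ar1, the receptor for complement C3a, was measured at 7 and 11.7 TPM on day 15 and 1.22 and 1.46 TPM on day 26 (log2 change -2.11, SE 0.29, adjusted p = 0.00688). The heme-degrading enzyme Hmox1 was at 111 and 122 against 39.9 and 25.6 TPM (log2 change -1.83, adjusted p = 0.00372) and the iron exporter Slc40a1 at 75.0 and 66.5 against 24.6 and 16.7 TPM (log2 change -1.75, adjusted p = 0.00518). Cd48 fell with 11.04 and 17.2 against 2.05 and 4.69 TPM (adjusted p = 0.0225) and the chemokine Ccl3 with 16.3 and 26.19 against 6.48 and 0.90 TPM (adjusted p = 0.0444). With Xist as a covariate the calls of the 5 genes that rose were lost (adjusted p 0.0605 to 0.311), while those of Trem2, C3ar1, Hmox1 and Slc40a1 were kept. With a library left out, the call was lost (adjusted p in parentheses) for Retnla without day 15 library 1 (0.166) or day 26 library 2 (0.12), Mgl2 without day 15 library 1 (0.184), day 26 library 1 (0.0575) or day 26 library 2 (0.172) and F13a1 without day 15 library 3 (0.0589), day 26 library 1 (0.0926) or day 26 library 2 (0.0683). Other such losses concerned Ear2 without day 15 library 1 (0.223), day 15 library 3 (0.0602) or day 26 library 2 (0.16), Lyz1 without day 15 library 1 (0.111), day 15 library 3 (0.0736) or day 26 library 2 (0.0951) and Cd48 without day 15 library 3 (0.095) or day 26 library 1 (0.0765). This also applied to Ccl3 without day 15 library 1 (0.105), day 15 library 3 (0.142) or day 26 library 2 (0.113).

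Of 6 tested members of the Serpina3 family of secreted protease inhibitors 4 rose and none fell (median 1.71). The count of 4 was 3 with Xist as a covariate and 1 from the 4 libraries of these days alone. With 1 library left out the median was 1.45 to 1.97. The most abundant, Serpina3n, was measured at 218 and 129 TPM on day 15 and 690.3 and 717 TPM on day 26 (log2 change 2.07, SE 0.27, adjusted p = 0.00536). These genes are close copies, so the division of reads between them is uncertain. Of 55 tested histone genes 13 fell and none rose (median -1.10), with the same uncertainty. Of these genes 19 reached 5 TPM in 2 libraries, and with that filter 10 of them fell (median -1.37). The median of the 55 was -2.34 with a pseudocount of 0.1 TPM. The count of 13 was 6 without day 15 library 1, 8 without day 15 library 3, 7 without day 26 library 1, 8 with median centring and 6 with Xist as a covariate. Hist1h2ap was measured at 606 and 690.2 TPM on day 15 and 101 and 113 TPM on day 26 (log2 change -2.59, SE 0.14, adjusted p = 0.000196), and the linker histone Hist1h1e at 26.6 and 18.3 against 3.47 and 2.78 TPM (log2 change -2.49, adjusted p = 0.00207). Ptx3, the soluble pattern receptor pentraxin 3, fell with 105 and 127 TPM on day 15 and 19.5 and 15.7 TPM on day 26 (log2 change -2.65, SE 0.21, adjusted p = 0.000727). Cilp, a secreted matrix protein, rose with 62.2 and 108 TPM on day 15 and 478 and 302 TPM on day 26 (log2 change 2.20, SE 0.30, adjusted p = 0.00612), and Enpp2, the lysophospholipase autotaxin, with 20.7 and 8.59 against 72.5 and 80.3 TPM (log2 change 2.42, adjusted p = 0.00862). Of genes best known from neural cells, Gap43, Stmn1, Agrn, Uchl1, Nell2 and Fabp7 fell. Stmn2 and the neuropeptide gene Gal, both among the 12 largest rises, rose as given above. The log2 change was -2.20 for Uchl1 (adjusted p = 0.0152), -2.47 for Nell2 (adjusted p = 0.00536) and -2.29 for Fabp7 (adjusted p = 0.0226). Gap43 was at 98.1 and 56.6 against 15.2 and 18.8 TPM (log2 change -2.08, adjusted p = 0.00468), Stmn1 at 178 and 134 against 31.1 and 60.2 TPM (log2 change -1.81, adjusted p = 0.0107) and Agrn, agrin, at 81.2 and 62.6 against 14.8 and 20.5 TPM (log2 change -1.97, adjusted p = 0.0043). The summed level of the Schwann cell and melanocyte markers was 1731 and 876 TPM on day 15 and 964 and 1358 TPM on day 26, and their part in these falls was not tested. A call was lost on removal of a library for Stmn1 and Uchl1 without day 15 library 1 and for Fabp7 without day 15 library 1 or day 26 library 1.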
